A study of Homo sapiens with 6 samples.

Results

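The interferon response and the presentation of peptides on MHC class I were followed in CAL27 cells through 40 genes, out of 31368 genes in the expression table. The genes were taken by symbol for their function, with earlier results of these data known, and all 40 had a row. 28 are genes of the interferon response, 11 belong to class I presentation, and CD274, which encodes the checkpoint ligand PD-L1, was kept apart from both. CAL27 is an established human line of tongue squamous cell carcinoma. Untreated cells and cells exposed for 24 h to 10 mM lactate each gave 3 poly-A-selected RNA-seq libraries, and the labels name no genetic change in either group. Expression was given as FPKM, a fragment count scaled to transcript length and sequencing depth. The labels do not say whether the 3 libraries of a group came from separate cultures, so p-values measure the spread between these libraries, which may be technical. The sources used here do not state the chemical form of the lactate or the acidity of the culture.

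Interferons are secreted proteins that bind cell-surface receptors and act through JAK kinases and STAT proteins on genes carrying an interferon-stimulated response element (ISRE) or a gamma-activated sequence (GAS). The induced genes encode sensors of viral RNA, transcription factors that extend the response, and effectors that block viral entry, replication or release. Class I presentation cuts cytosolic proteins into peptides, pumps them into the endoplasmic reticulum, trims them and loads them on a heavy chain bound to beta-2-microglobulin. The loaded complex is read at the cell surface by CD8+ T cells, and its genes respond to interferon and to the transactivator NLRC5. Epithelial tumour cells can express both programmes at a resting level without added interferon.

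The deposited values rested on denominators of 25163374 to 40220226 reads per library, so that 1 FPKM in a 2 kb gene stood for 50.3 to 80.4 reads. Genes that reached 1 FPKM in 3 or more libraries were tested with limma on log2(FPKM + 1), and a gene counted as changed at a Benjamini-Hochberg adjusted p under 0.05 over all 11792 genes tested. By this rule 58.6% of all genes tested changed, 27.7% upward and 30.9% downward, and in 65.5% the values of the groups did not overlap (31.4% with lactate above and 34.2% with lactate below). These were 3265 rises and 3649 falls, a split that moved to 4195 and 2568 when libraries were scaled to their totals of recovered reads. Small shifts were therefore common across the transcriptome, and the median absolute log2 fold change of all genes tested was 0.16. All 14 squamous epithelial markers examined, among them KRT5, KRT14 and TP63, stood at or above 1 FPKM, with summed levels of 1137 to 1155 FPKM in untreated and 1161 to 1181 FPKM in lactate libraries. Among 10 leukocyte markers only CSF1R reached 1 FPKM, among 7 fibroblast markers 0 did, and among 5 endothelial markers only CDH5 did. Summed leukocyte markers held 2.53 to 2.77 FPKM in untreated and 1.72 to 2.45 FPKM in lactate libraries. Fibroblast markers summed to 1.08 to 1.21 and 1.61 to 1.80 FPKM, and endothelial markers to 1.24 to 1.43 and 1.1 to 1.24 FPKM, and no marker in the table was at 0 in all libraries. The part of other cells in the results below was not tested.

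The promoters of these genes show which of them carry the letters that interferon-activated factors bind, and 9 are shown because they span the rises, the falls and the abundant genes that did not pass the test. The sequences are RefSeq reference sequence of GRCh38.p14, which held promoters for 30 of the 40 genes, read 5′ to 3′ on the strand of the gene. Capitals mark matches to the ISRE core GAAANNGAA, to the GAS letters TTCNNNGAA or to TGACGC, the core of the CRE-like box of class I promoters, each searched on both strands. A match on the other strand appears as its reverse complement. A GAS match can overlap an ISRE match, as it does in BST2.
ISG15: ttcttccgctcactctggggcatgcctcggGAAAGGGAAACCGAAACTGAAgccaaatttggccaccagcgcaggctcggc
IFIH1: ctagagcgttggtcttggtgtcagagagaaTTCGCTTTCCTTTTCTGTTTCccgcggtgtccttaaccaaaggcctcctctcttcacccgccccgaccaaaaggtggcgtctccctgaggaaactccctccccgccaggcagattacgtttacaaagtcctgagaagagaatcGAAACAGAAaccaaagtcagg
BST2: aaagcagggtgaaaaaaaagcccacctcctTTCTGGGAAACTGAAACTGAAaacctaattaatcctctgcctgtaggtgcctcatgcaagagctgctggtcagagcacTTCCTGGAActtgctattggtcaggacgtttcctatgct
IFITM3: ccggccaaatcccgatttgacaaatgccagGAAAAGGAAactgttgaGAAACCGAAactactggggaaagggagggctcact
B2M: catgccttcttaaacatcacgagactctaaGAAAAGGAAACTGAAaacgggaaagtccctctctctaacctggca
TAP1: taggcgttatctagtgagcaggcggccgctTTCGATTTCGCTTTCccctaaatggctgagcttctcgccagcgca
HLA-F: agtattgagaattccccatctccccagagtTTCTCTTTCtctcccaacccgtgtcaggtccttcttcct
HLA-B: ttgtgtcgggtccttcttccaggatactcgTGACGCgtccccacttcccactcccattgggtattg
CD274: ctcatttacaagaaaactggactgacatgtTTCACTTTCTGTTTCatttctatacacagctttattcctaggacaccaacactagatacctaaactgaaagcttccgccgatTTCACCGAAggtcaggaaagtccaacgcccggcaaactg
In ISG15 (chr1:1013354-1013434, plus strand) 3 overlapping ISRE cores began 113, 107 and 101 bases before the annotated start. IFIH1 (chr2:162318685-162318878, minus strand) held 3 overlapping cores that began 164, 158 and 152 bases before the start and a single core at 21 bases before it. In BST2 (chr19:17405650-17405796, minus strand) ISRE cores at 130 and 124 bases before the start followed a GAS match at 136, with another GAS match at 58. IFITM3 (chr11:320861-320942, minus strand) held cores at 52 and 35 bases before the start, B2M (chr15:44711343-44711417, plus strand) at 144 and 138, and TAP1 (chr6:32853793-32853867, minus strand) at 133 and 127. HLA-F (chr6:29723249-29723317, plus strand) held a single core at 155 bases before its start and lacked the letters TGACGC in this window. HLA-B (chr6:31357250-31357315, minus strand) held TGACGC at 106 and no match to the letters GAAANNGAA. Other spellings of the ISRE were not searched, so a promoter without a match may still hold one. CD274 (chr9:5450305-5450455, plus strand) held ISRE cores at 207 and 201 bases before the start and a GAS match at 125.

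Within 250 bases before to 50 bases after the start, 20 of the 30 promoters held the ISRE core, against 8.29% of the promoters of 27305 genes. The GAS letters were in 7 of 30 promoters, against 7.88% of all, and TGACGC in 3 (HLA-B, HLA-C and TAP2), against 9.20% of all. The ISRE core occurred among genes of each outcome. It was found in 7 of the 9 promoters of genes that rose, 5 of the 7 of genes that fell, 7 of the 10 of genes that did not pass the test and 1 of the 4 of genes too low to test. Such matches describe the letters of a window and are not evidence of binding. The promoters of IRF7, IRF2, USP18, IFIT2, IFITM2, MX2, OAS2, OASL, HLA-E and NLRC5 were not analysed here.

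The interferon genes showed no common direction after lactate. Of the 28 genes, 23 were tested, 5 rose (IFIH1, IFIT1, BST2, SAMHD1 and IFI44), 9 fell (STAT2, IRF1, USP18, IFIT2, IFITM2, IFITM3, MX1, OAS3 and OASL) and 9 did not pass the test. The share called, 60.9%, lay close to the 58.6% of all genes tested, and the median log2 fold change was -0.03 against -0.02 for all genes tested. In 15 of the 23 the groups did not overlap, against 65.5% of all genes tested. Among those tested the steepest fall was in OASL (ratio of means 0.768) and the steepest rise in SAMHD1 (ratio of means 1.31). In bulk RNA a change in the number of cells that express a gene and a change in RNA per cell cannot be told apart.

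**Figure D1:**
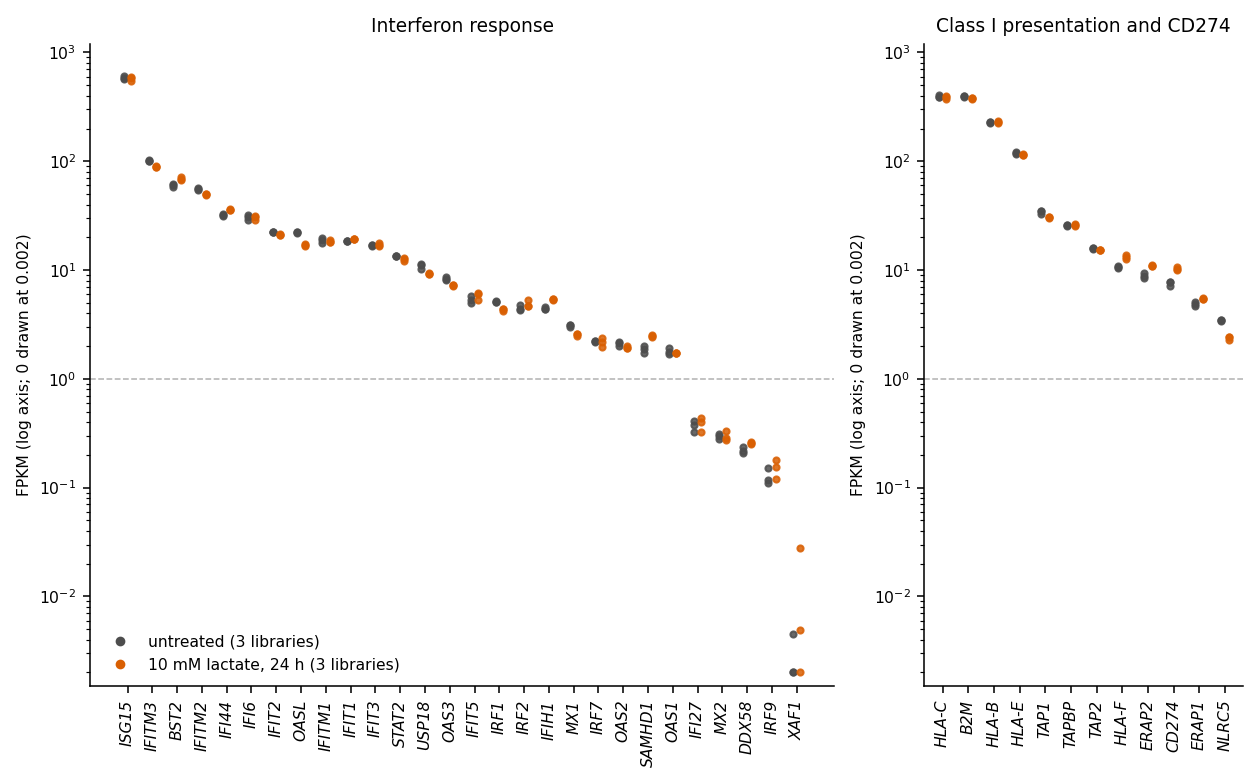
Levels of all 40 genes in each library, in FPKM on a log axis, sorted by the mean in untreated cells; each point is a library, grey for untreated and orange for 10 mM lactate, and the dashed line is 1 FPKM. ISG15 leads the interferon genes at 549 to 606 FPKM, HLA-C and B2M lead the presentation genes, and the 5 genes too low to test lie below the line.

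ISG15, a ubiquitin-like protein conjugated to other proteins during the interferon response, ranked 93rd of all genes by mean FPKM in untreated cells. It alone made up 56.6%, 57.6% and 57.2% of the summed FPKM of the 28 interferon genes in untreated replicates 1 to 3 and 56.1%, 57.9% and 57.3% in the lactate replicates. Below it came IFITM3, BST2 and IFITM2, while OAS1, SAMHD1, OAS2 and IRF7 stood near 2 FPKM.

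Of the 2 RNA sensors among the 28 genes, IFIH1 rose and DDX58 was too low to test. IFIH1 encodes MDA5, which binds long double-stranded RNA (ENSG00000115267, GRCh38 chr2:162267079-162318703, minus strand). It was at 4.39, 4.38 and 4.53 FPKM in untreated replicates 1 to 3 and at 5.35, 5.41 and 5.45 FPKM in lactate replicates 1 to 3. Every lactate library lay above every untreated one, and the log2 fold change was 0.24 (SE 0.0301, 95% interval 0.17 to 0.31, limma adjusted p = 0.000452, n = 3 per group). DDX58, which encodes the RNA sensor RIG-I, stood at 0.208 to 0.234 FPKM in untreated and 0.250 to 0.262 FPKM in lactate libraries, a ratio of means of 1.17 with no overlap. These levels, on a mean of 78.7 reads per library, lay below the filter of 1 FPKM, and without the filter its log2 fold change of 0.04 had an adjusted p of 0.573.

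Among the 4 transcription factors tested 2 fell and none rose, 50% called against 58.6% of all genes tested. IRF1, an activator of interferon-induced and class I genes (ENSG00000125347, GRCh38 chr5:132481609-132490798, minus strand), was at 5.06, 5.17 and 5.06 FPKM in untreated and 4.24, 4.38 and 4.35 FPKM in lactate libraries. The groups were apart, with a ratio of means of 0.849 and a log2 fold change of -0.19 (SE 0.0303, limma adjusted p = 0.00118). 1716 exonic bases of IRF1 lie opposite the transcript C5orf56, whose reads cannot be told apart without strand. STAT2, the partner that gives the interferon-activated complex its transactivation domain, was at 13.5, 13.6 and 13.5 FPKM in untreated and 13.0, 12.2 and 12.7 FPKM in lactate libraries. Its groups did not overlap, and its log2 fold change was -0.09 (SE 0.0294, adjusted p = 0.0286). This call was lost when any of untreated replicates 1, 2 and 3 or lactate replicates 2 and 3 was left out (adjusted p 0.0577 to 0.0760). Quantile normalization, scaling to totals of recovered reads and no filter on low values ended it too. So did removal of the trends on GC content and length (-0.055, adjusted p = 0.136).

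IRF7, a factor that amplifies the type I interferon response, was at 2.17, 2.21 and 2.23 FPKM in untreated and 2.18, 2.39 and 1.98 FPKM in lactate libraries. The lactate libraries lay on both sides of the untreated ones, and the 95% interval of the log2 fold change was -0.13 to 0.11. IRF2, which competes with IRF1 for its sites, was at 4.38, 4.74 and 4.28 FPKM in untreated and 5.25, 4.67 and 4.64 FPKM in lactate libraries. Lactate replicate 1 stood above the other libraries, the remaining values overlapped, and the interval was -0.02 to 0.22 (adjusted p = 0.144). IRF9, the DNA-binding subunit of the same complex as STAT2, had only 0.111 to 0.151 FPKM in untreated and 0.119 to 0.180 FPKM in lactate libraries, with 16.2 reads per library on average. 1838 of its exonic bases are shared on the same strand with an overlapping protein-coding gene, so this low level is uncertain.

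BST2 and IFITM3, effectors that restrict viruses at membranes, moved in opposite directions in the deposited values. BST2, or tetherin, holds budding virions at the cell surface (ENSG00000130303, GRCh38 chr19:17402939-17405648, minus strand). It was at 58.3, 60.2 and 62.4 FPKM in untreated and 67.8, 68.8 and 71.9 FPKM in lactate libraries. The groups were apart, with a log2 fold change of 0.20 (SE 0.0323, 95% interval 0.13 to 0.28, limma adjusted p = 0.00134). IFITM3, which hinders fusion of enveloped viruses in endosomes, went the other way, from 99.7, 103 and 100.2 FPKM in untreated to 89.0, 89.8 and 88.3 FPKM in lactate libraries. The lowest untreated library exceeded the highest lactate library by more than the spread within either group (101 ± 1.82 against 89.0 ± 0.738 FPKM, SD, n = 3), and the log2 fold change was -0.18 (SE 0.0196, adjusted p = 0.000227).

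IFITM2, its close paralog, was at 55.1, 56.5 and 54.4 FPKM in untreated and 49.8, 49.6 and 49.4 FPKM in lactate libraries, with groups apart and a log2 fold change of -0.16 (SE 0.0209, adjusted p = 0.000595). IFITM1, the family member found mainly at the cell surface, was at 19, 19.8 and 17.6 FPKM in untreated and 18.2, 18.8 and 18.2 FPKM in lactate libraries. Its groups overlapped, and the interval of the log2 fold change was -0.12 to 0.07. The family shares near-identical sequence, and IFITM1 and IFITM2 share 351 annotated exonic bases on one strand, so the split of reads among them is uncertain. The falls of IFITM2 and IFITM3 did not hold under quantile normalization (log2 fold changes -0.03 and -0.04, adjusted p = 0.313 and 0.166) or with the trends on GC content and length removed (0.01 and -0.01, adjusted p = 0.664 and 0.631). With these trends removed IFITM1 passed as higher (0.15, adjusted p = 0.0188).

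Of the 2′-5′-oligoadenylate synthetase family, whose enzymes make the activator of RNase L on binding double-stranded RNA, OASL and OAS3 fell and OAS1 and OAS2 did not pass the test. OASL, the family member that lacks synthetase activity (ENSG00000135114, GRCh38 chr12:121019111-121039242, minus strand), was at 22.3, 21.9 and 22.2 FPKM in untreated and 16.7, 17.2 and 17.1 FPKM in lactate libraries. No library of either group came near the other group, and the log2 fold change of -0.36 (SE 0.0231, 95% interval -0.42 to -0.31, limma adjusted p = 2.83e-05) was the lowest among the interferon genes. OAS3 was at 8.19, 8.61 and 8.15 FPKM in untreated and 7.12, 7.22 and 7.25 FPKM in lactate libraries. Its groups were apart as well, with a log2 fold change of -0.18 (SE 0.0308, adjusted p = 0.00166).

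OAS2 was at 2.02, 2.19 and 2.15 FPKM in untreated and 1.93, 2.01 and 1.92 FPKM in lactate libraries. The lactate libraries lay just below the untreated ones, yet the fall was not past the threshold (log2 fold change -0.08, adjusted p = 0.131). OAS1 was at 1.68, 1.76 and 1.91 FPKM in untreated and 1.73, 1.73 and 1.72 FPKM in lactate libraries. Its lactate values fell inside the untreated range, with an interval of -0.14 to 0.07 for the log2 fold change.

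MX1, a dynamin-like GTPase that blocks influenza and other viruses, was at 3.14, 3.02 and 3.11 FPKM in untreated and 2.58, 2.57 and 2.49 FPKM in lactate libraries. The groups did not overlap, and the ratio of means was 0.824 (log2 fold change -0.21, SE 0.0346, adjusted p = 0.00172). Its relative MX2, which acts on retroviruses at the nuclear pore, was below the filter in all libraries, at 0.282 to 0.314 FPKM in untreated and 0.271 to 0.335 FPKM in lactate libraries. MX2 thus overlapped between the groups, at a ratio of means of 0.992. SAMHD1, which restricts retroviruses by hydrolysing dNTPs, was at 1.88, 2.02 and 1.74 FPKM in untreated and 2.52, 2.43 and 2.45 FPKM in lactate libraries. SAMHD1 had the highest ratio of means among the 23 interferon genes tested, 1.31, with groups apart and a log2 fold change of 0.27 (SE 0.0462, adjusted p = 0.00187). 1159 of its exonic bases lie opposite TLDC2.

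The genes of the IFIT proteins, which bind viral RNA, held the smallest called changes among the interferon genes. IFIT1 was at 18.6, 18.6 and 18.4 FPKM in untreated and 19.4, 19.3 and 19.3 FPKM in lactate libraries, and IFIT2 at 22.2, 22.2 and 22.5 against 21.0, 21.2 and 21.5 FPKM. Both were apart between the groups, IFIT1 upward by 0.06 (SE 0.0216, adjusted p = 0.0472) and IFIT2 downward with a log2 fold change of -0.07 (SE 0.0222, adjusted p = 0.0330). Leaving out any 1 of the 6 libraries ended both calls, with adjusted p of 0.0745 to 0.132 for IFIT1 and 0.0506 to 0.0990 for IFIT2. The direction of IFIT1 turned with the trends on GC content and length removed (-0.048), and that of IFIT2 under quantile normalization (0.0042). IFIT3 was at 16.9, 16.7 and 16.9 FPKM in untreated and 17.7, 16.7 and 17.0 FPKM in lactate libraries, and IFIT5 at 5.83, 5.03 and 5.35 against 6.07, 5.35 and 6.17 FPKM. The groups overlapped for both, with intervals of -0.04 to 0.09 for IFIT3 and -0.04 to 0.25 for IFIT5.

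ISG15 itself was at 574, 606 and 588 FPKM in untreated and 549, 589 and 577 FPKM in lactate libraries. The groups overlapped, and the interval of its log2 fold change, -0.12 to 0.03, held no fall as steep as that of OASL. USP18, the protease that removes ISG15 from its targets and dampens receptor signalling, was at 11.2, 11.3 and 10.3 FPKM in untreated and 9.25, 9.34 and 9.19 FPKM in lactate libraries. All lactate values of USP18 lay below the untreated ones, with a ratio of means of 0.848 and a log2 fold change of -0.22 (SE 0.0377, adjusted p = 0.00207). This call was lost with the trends on GC content and length removed (-0.08, adjusted p = 0.104).

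IFI44, an induced protein of incompletely known function, was at 32.3, 32.9 and 31.6 FPKM in untreated and 35.5, 35.8 and 36.4 FPKM in lactate libraries. It rose by 0.15 on the log2 scale with groups apart (SE 0.0235, adjusted p = 0.00122), and this call too was lost with the trends removed (0.07, adjusted p = 0.0702). IFI6, a small membrane protein that protects the endoplasmic reticulum from viral remodelling, was at 32, 28.7 and 30.7 FPKM in untreated and 31.7, 30.7 and 28.8 FPKM in lactate libraries. Its groups had almost the same range, and the interval of the log2 fold change was -0.12 to 0.11. IFI27 and XAF1, which are strongly induced in many interferon-treated cells, were nearly silent: IFI27 stood at 0.326 to 0.409 FPKM in untreated and 0.324 to 0.440 FPKM in lactate libraries. XAF1 had 0, 0 and 1 reads in the untreated and 1, 6 and 0 reads in the lactate libraries.

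**Figure D2:**
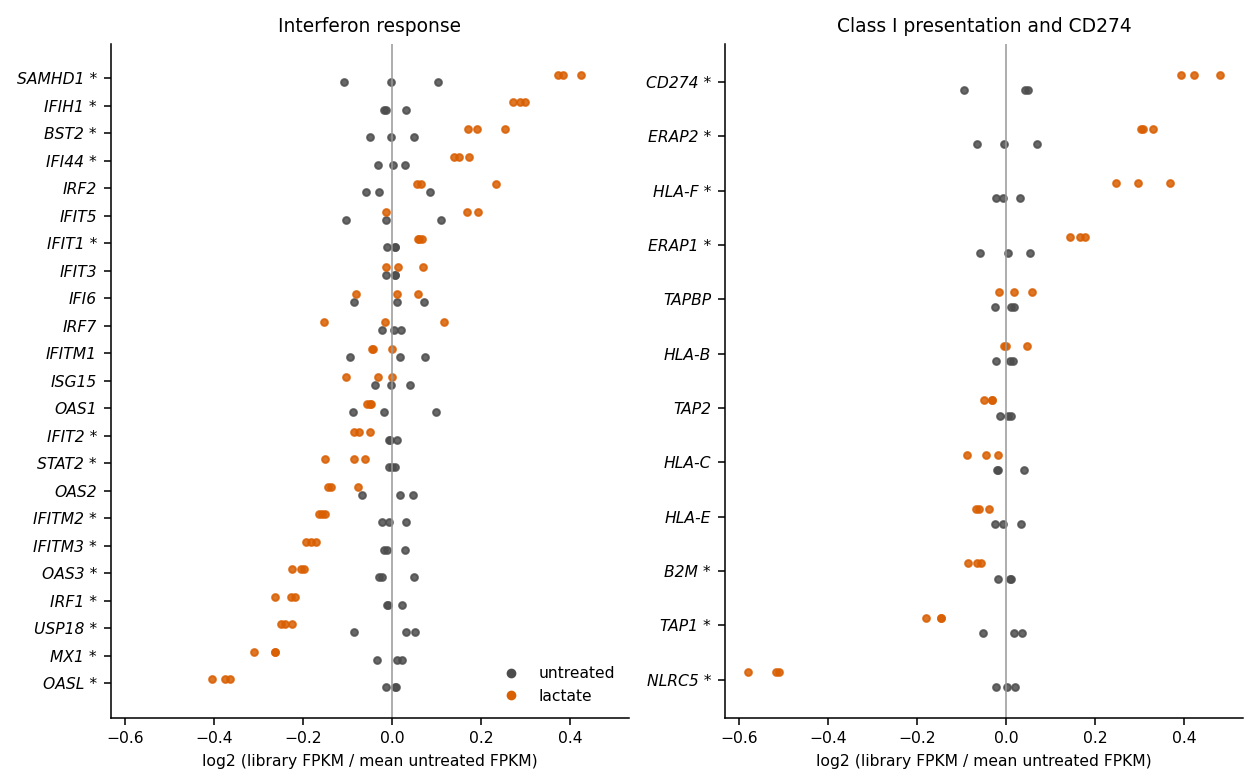
Each library's FPKM relative to the untreated mean of the gene, on a log2 axis, for the 35 genes tested, sorted by ratio of means; grey points are untreated and orange points lactate libraries, and an asterisk marks an adjusted p under 0.05. Lactate points of OASL, MX1 and NLRC5 lie left of all untreated points, those of SAMHD1, IFIH1, HLA-F, ERAP2 and CD274 lie right of them, and ISG15, IFI6, HLA-B and TAPBP overlap.

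Class I presentation was also split between rises and falls. Of the 11 genes, all tested, 3 rose (HLA-F, ERAP1 and ERAP2), 3 fell (B2M, TAP1 and NLRC5) and 5 did not pass the test, so that 54.5% were called against 58.6% of all genes tested. In 8 of the 11 the groups did not overlap, against 65.5% of all genes tested, and the median log2 fold change was -0.04 against -0.02. HLA-B, HLA-C and HLA-E, the most abundant heavy chains, had log2 fold changes of 0.01, -0.05 and -0.06, while the transactivator NLRC5 had the steepest fall.

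The classical heavy chains, which carry the peptide groove, did not pass the test. HLA-C was at 393, 409.8 and 394 FPKM in untreated and 375, 394 and 387 FPKM in lactate libraries, and ranked 144th of all genes in untreated cells. The ranges touched, with an interval of -0.11 to 0.01 for the log2 fold change (adjusted p = 0.116). HLA-B was at 229.9, 229 and 224 FPKM in untreated and 235, 227 and 227 FPKM in lactate libraries, and ranked 227th. The groups overlapped, and the interval was -0.03 to 0.06. 542 exonic bases of HLA-B lie opposite a class I pseudogene, and reads may have been lost or misassigned among these polymorphic paralogs. Under quantile normalization HLA-B, HLA-C and HLA-E were all higher in lactate, with log2 fold changes of 0.17, 0.16 and 0.11 (adjusted p = 0.000212, 0.00112 and 0.00469), whereas HLA-C was lower with median centring (-0.07, adjusted p = 0.0373) and voom (-0.05, adjusted p = 0.0195). The same 3 genes were also higher with the trends on GC content and length removed (0.13, 0.07 and 0.07, adjusted p = 0.00577, 0.00408 and 0.00857). Their direction thus depended on the scaling and on this correction.

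Of the non-classical heavy chains HLA-F rose and HLA-E did not pass the test, and the difference between them was not tested. HLA-E, which presents leader peptides of other class I proteins to NK cells, was at 117, 122 and 119 FPKM in untreated and 114, 116 and 115 FPKM in lactate libraries. All lactate values lay below the untreated ones, and the log2 fold change of -0.06 (interval -0.10 to -0.01) was just outside the threshold (adjusted p = 0.0526). It passed as lower without untreated replicate 1 (-0.07, adjusted p = 0.0385), with median centring (-0.08, adjusted p = 0.0150), at a filter of 5 FPKM (adjusted p = 0.0419) and with voom (adjusted p = 0.0251). HLA-E passed as higher under quantile normalization, as given above, and with the trends on GC content and length removed (0.07, adjusted p = 0.00857). HLA-F, which reaches the cell surface partly without peptide and binds NK cell receptors (ENSG00000204642, GRCh38 chr6:29722775-29738528, plus strand), was at 10.6, 10.9 and 10.5 FPKM in untreated and 13.1, 13.8 and 12.7 FPKM in lactate libraries.

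The gap between the groups exceeded the spread within them (10.7 ± 0.203 against 13.2 ± 0.566 FPKM, SD, n = 3), with a log2 fold change of 0.28 for HLA-F (SE 0.0353, 95% interval 0.20 to 0.36, limma adjusted p = 0.000444). Its share of the summed FPKM of the 4 heavy chains was 1.41% in each untreated library and 1.78%, 1.83% and 1.71% in the lactate libraries. Exons of HLA-F lie opposite the antisense transcript HLA-F-AS1 over 535 bases and opposite 2 pseudogenes over 701 and 257 bases. Whether part of its reads came from these transcripts was not tested.

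B2M, the light chain of every class I molecule, was at 398, 391 and 399 FPKM in untreated and 381, 373 and 378 FPKM in lactate libraries. The groups were apart by a small margin, and the log2 fold change was -0.07 (SE 0.0159, 95% interval -0.11 to -0.03, adjusted p = 0.00720). The direction of B2M depended on the scaling between libraries. It was 0.15 with quantile normalization (adjusted p = 0.000925) and 0.00085 with scaling to the totals of recovered reads (adjusted p = 0.965), and it was -0.23 with the trends on GC content and length removed (adjusted p = 1.47e-05).

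In peptide transport and loading the TAP subunits did not act as a pair by the test. TAP1, a subunit of the peptide pump, was at 33.0, 35.0 and 34.6 FPKM in untreated and 30.2, 30.9 and 30.9 FPKM in lactate libraries. The groups of TAP1 were apart, with a log2 fold change of -0.15 (SE 0.0278, adjusted p = 0.00248), which missed the threshold under quantile normalization (-0.07, adjusted p = 0.0720) and scaling to read totals (-0.08, adjusted p = 0.0528). TAP2, the other subunit, was at 15.6, 15.8 and 15.9 FPKM in untreated and 15.4, 15.2 and 15.4 FPKM in lactate libraries. Its lactate values also lay below the untreated ones, but the interval was -0.09 to 0.02 (adjusted p = 0.219). The difference between the TAP1 and TAP2 responses was not tested, and 2064 exonic bases of TAP2 are shared with an overlapping protein-coding gene. TAPBP, or tapasin, which bridges the pump and the heavy chain, was at 25.2, 26.0 and 25.9 FPKM in untreated and 25.4, 26.8 and 26.0 FPKM in lactate libraries, with overlapping groups and an interval of -0.04 to 0.08.

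The aminopeptidases that trim peptides in the endoplasmic reticulum both rose in the deposited values, ERAP1 not with the trends on GC content and length removed. ERAP2 was at 8.86, 8.49 and 9.33 FPKM in untreated and 11, 11 and 11.2 FPKM in lactate libraries. The groups were apart, with a ratio of means of 1.24 and a log2 fold change of 0.29 (SE 0.0359, adjusted p = 0.000438). ERAP1 was at 4.68, 4.89 and 5.07 FPKM in untreated and 5.47, 5.39 and 5.51 FPKM in lactate libraries, again apart, with a log2 fold change of 0.14 (SE 0.0348, adjusted p = 0.0119). The ratio of ERAP2 to ERAP1 was 1.89, 1.74 and 1.84 in untreated and 2.01, 2.04 and 2.03 in lactate libraries, without overlap. With the trends on GC content and length removed ERAP2 still passed (0.11), whereas ERAP1 turned to -0.05 (adjusted p = 0.277).

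NLRC5, the transactivator that drives transcription of class I heavy chains and B2M (ENSG00000140853, GRCh38 chr16:56989485-57083531, plus strand), was at 3.38, 3.44 and 3.48 FPKM in untreated and 2.40, 2.30 and 2.41 FPKM in lactate libraries. No lactate library reached the untreated range. The mean went from 3.43 ± 0.05 to 2.37 ± 0.0623 FPKM (SD, n = 3), a ratio of 0.690, and the log2 fold change was -0.40 (SE 0.0346, 95% interval -0.48 to -0.32, limma adjusted p = 8.88e-05). This was the lowest log2 fold change among the 35 genes tested.

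CD274, whose product PD-L1 restrains T cells through PD-1 and which interferon induces (ENSG00000120217, GRCh38 chr9:5450503-5470566, plus strand), had the highest log2 fold change of the 35 genes in the deposited values. With the trends on GC content and length removed, BST2 (0.38) and HLA-F (0.37) stood above it (0.27). It was at 7.81, 7.10 and 7.84 FPKM in untreated and 10.6, 10.2 and 9.96 FPKM in lactate libraries. Every lactate library lay above every untreated one. The mean went from 7.59 ± 0.421 to 10.2 ± 0.317 FPKM (SD, n = 3), a ratio of 1.35, with a log2 fold change of 0.39 (SE 0.0429, 95% interval 0.29 to 0.49, limma adjusted p = 0.000245). CD274 carries ISRE and GAS matches, as shown above. Both also occur in BST2, which rose, IFITM1, which did not pass in the deposited values, and IFI27, which was too low to test. A link between matches and fold changes was not tested.

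Fold changes moved with GC content across the whole transcriptome. When all genes tested with a known GC content were put into 5 equal classes from low to high, the median log2 fold change was 0.15, 0.09, -0.06, -0.13 and -0.10. Of the 9 genes described here that rose, 4 fell in the lowest class, 3 in the next and 2 in the fourth. Of the 12 that fell, 8 were in the fourth class and 1 in each of the others. The median GC content of the genes that rose was 42.2% and of those that fell 52.5%. BST2 (57.3% GC) and HLA-F (57.7%) rose against the trend, and B2M (40.6%) and IFIT2 (42.8%) fell against it.

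**Figure D3:**
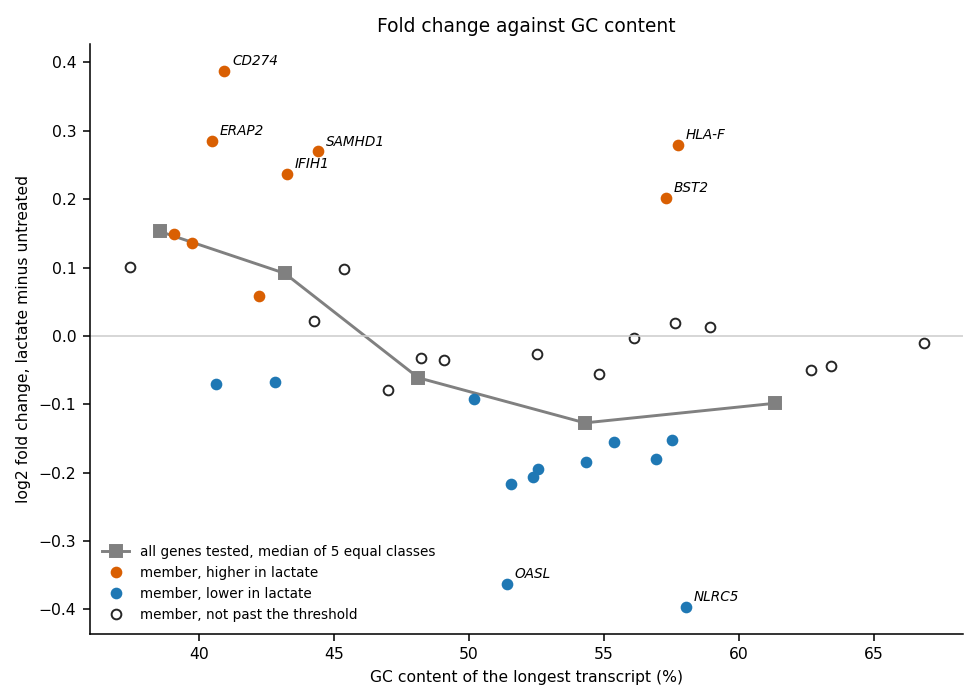
Log2 fold change on log2(FPKM + 1), lactate minus untreated, against the GC content of the longest transcript in percent, for the 35 genes tested; filled points passed the test (orange higher, blue lower), open points did not, and grey squares join the medians of 5 equal classes of all genes tested. The medians go from 0.15 in the lowest class to -0.13 in the fourth, and CD274, HLA-F, BST2, OASL and NLRC5 lie far from them.

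After removal of the trends on GC content and length, 6 interferon genes rose and 5 fell, and 6 presentation genes rose and 3 fell, where 48.7% of all 11588 genes in that fit were called (2514 rises and 3133 falls). Of the 21 genes called, 11 kept both direction and call in every alternative in which they were tested: IFIH1, BST2, SAMHD1, HLA-F, ERAP2 and CD274 upward, and IRF1, MX1, OAS3, OASL and NLRC5 downward. At the filter of 5 FPKM IFIH1 was kept only through its lactate libraries and IRF1 only through its untreated ones. That setting therefore adds no support for IFIH1 or IRF1. The share of all genes that kept their call in every alternative is not given here. The corrected log2 fold changes were 0.27 for CD274, 0.37 for HLA-F, 0.38 for BST2, 0.14 for IFIH1 and 0.15 for SAMHD1. For the genes that fell they were -0.38 for NLRC5, -0.26 for OASL, -0.18 for MX1, -0.16 for IRF1 and -0.14 for OAS3. ISG15, which had overlapping groups in the deposited values, moved to 0.11 (adjusted p = 0.00226) with this correction and to 0.13 (adjusted p = 0.0105) with quantile normalization. With a block on replicate number ISG15 instead passed as lower, as given below.

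**Figure D4:**
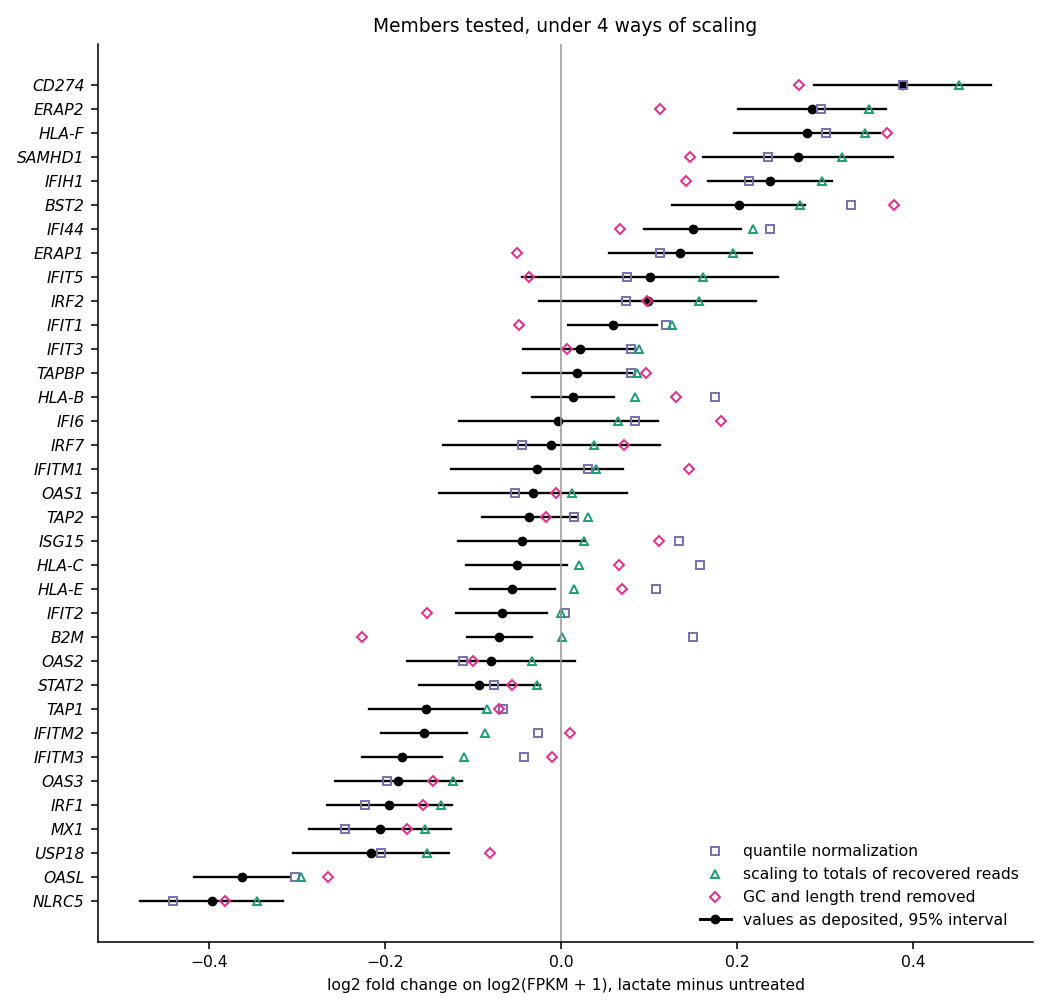
Log2 fold change, lactate minus untreated, of the 35 genes tested; black points with bars give the deposited values with 95% intervals, and open symbols give quantile normalization, scaling to totals of recovered reads, and removal of GC and length trends. CD274, HLA-F, NLRC5 and OASL stay on one side of 0 under all 4, whereas B2M ranges from -0.23 to 0.15.

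The rest of the pathway was read from 127 further genes, of which 123 were in the table and 96 were tested. 27 rose and 31 fell, 60.4% in all against 58.6% of all genes tested, and the median log2 fold change was -0.01. Among the interferons themselves, 7 of 10 genes were in the table and only IFNB1 and IFNL1 were high enough to test, with 0 calls. IFNL1, a type III interferon of epithelia, was at 3.38, 2.87 and 2.91 FPKM in untreated and 2.79, 2.75 and 3.14 FPKM in lactate libraries. The groups of IFNL1 overlapped (log2 fold change -0.06, limma adjusted p = 0.466), on 56 to 98 reads per library.

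Receptors and kinases held 3 rises and 0 falls among 6 tested, 50% called against 58.6% of all genes tested. IFNAR1, a chain of the type I interferon receptor, was at 4.30, 4.19 and 4.23 FPKM in untreated and 6.01, 5.95 and 5.99 FPKM in lactate libraries. The libraries of each group lay close together and far from the other group, with a log2 fold change of 0.41 (SE 0.0288, adjusted p = 3.69e-05). JAK1, a kinase shared by the interferon receptors, had a mean of 5.06 ± 0.142 FPKM in untreated and 6.79 ± 0.192 FPKM in lactate libraries (log2 fold change 0.36, adjusted p = 0.000121). IFNGR1, the ligand-binding chain of the type II receptor, went from 27.3 ± 0.955 to 32 ± 0.424 FPKM (0.22, adjusted p = 0.000573).

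Of 7 negative regulators 57.1% were called, against 58.6% of all genes tested. 1 rose, PIAS1 (log2 fold change 0.22), and 3 fell, TRIM27 (-0.39), SOCS3 (-0.15) and PTPN6 (-0.13). PTPN6 lost its call without lactate replicate 3 (adjusted p = 0.0503). Among 13 tested genes of nucleic acid sensing and relay 2 rose and 5 fell, 53.8% called against the same 58.6%. IKBKE and TBK1, related kinases that phosphorylate IRF3, went apart: IKBKE from 11.6 ± 0.610 to 8.11 ± 0.284 FPKM (-0.47, adjusted p = 0.000105) and TBK1 from 1.95 ± 0.0619 to 2.47 ± 0.0609 FPKM (0.23, adjusted p = 0.00163). IRF3, their substrate, fell (-0.23), as did TRIM25, which activates RIG-I (-0.32), while the DNA sensor IFI16 rose (0.12), a direction that turned with the trends on GC content and length removed (-0.040). DHX58, which encodes LGP2, a relative of the RIG-I and MDA5 sensors, fell with groups apart (-0.21, adjusted p = 0.00888) and is named here after its value was seen. That call was lost with the same trends removed (-0.11, adjusted p = 0.0796).

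Other interferon-induced genes held 14 rises and 10 falls among 35 tested, 68.6% called against 58.6% of all genes tested. The guanylate-binding protein gene GBP2 was at 1.60, 1.76 and 1.67 FPKM in untreated and 2.92, 2.82 and 2.74 FPKM in lactate libraries. The groups were far apart, and its log2 fold change was 0.52 (SE 0.0416, adjusted p = 6.23e-05). GBP1 (0.36) and EIF2AK2, which encodes the double-stranded RNA-activated kinase PKR (0.35), rose too. WARS1, an interferon-gamma-induced tRNA synthetase (-0.31), NMI (-0.18) and UBE2L6, the conjugating enzyme for ISG15 (-0.17), fell.

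Among 18 other class I genes tested, 10 fell and 1 rose, 61.1% called against 58.6% of all genes tested, and the median log2 fold change was -0.16 against -0.02. CALR, a chaperone of heavy chain folding, was at 724, 701 and 699 FPKM in untreated and 569, 550 and 545 FPKM in lactate libraries. The groups were far apart, with a log2 fold change of -0.35 (SE 0.0220, adjusted p = 2.64e-05). PSMB8, an inducible catalytic subunit of the immunoproteasome, went from 54.8 ± 0.906 to 42.6 ± 0.309 FPKM (-0.36, adjusted p = 2.01e-05), and the proteasome activator PSME3 fell by 0.22 on the log2 scale. The rise was in MARCHF9 (listed as MARCH9), a ubiquitin ligase that can lower class I at the surface (0.28, adjusted p = 0.0343). Leaving out any of untreated replicates 1 and 3 and lactate replicates 1 and 2 ended that call (adjusted p 0.0609 to 0.0960).

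Checkpoint and NK ligands beside CD274 held 6 rises and 3 falls among 11 tested, 81.8% called, where 58.6% of all genes tested were. PDCD1LG2, which encodes the second PD-1 ligand PD-L2, was at 3.43, 3.27 and 3.09 FPKM in untreated and 4.65, 3.90 and 4.75 FPKM in lactate libraries. The groups did not overlap, with a log2 fold change of 0.35 (SE 0.0663, adjusted p = 0.00311). NECTIN2 (0.26) and CD47, the phagocytosis checkpoint (0.18), rose, although CD47 turned to -0.016 with the trends on GC content and length removed. PVR (-0.18) and the stress ligands MICA (-0.18) and MICB (-0.13) of the NK receptor NKG2D fell. Other listed NKG2D ligands did not fall: ULBP1 (0.20, limma adjusted p = 0.0368) and ULBP3 (0.16, adjusted p = 0.00581) rose, and ULBP2 (0.016) did not pass. The ULBP genes are named here after their values were seen. Of the MHC class II genes 4 were tested with 0 calls, and CD74, the invariant chain, went from 11.5 ± 0.301 to 12 ± 0.176 FPKM without overlap but not past the threshold (0.06, adjusted p = 0.0991).

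**Figure D5:**
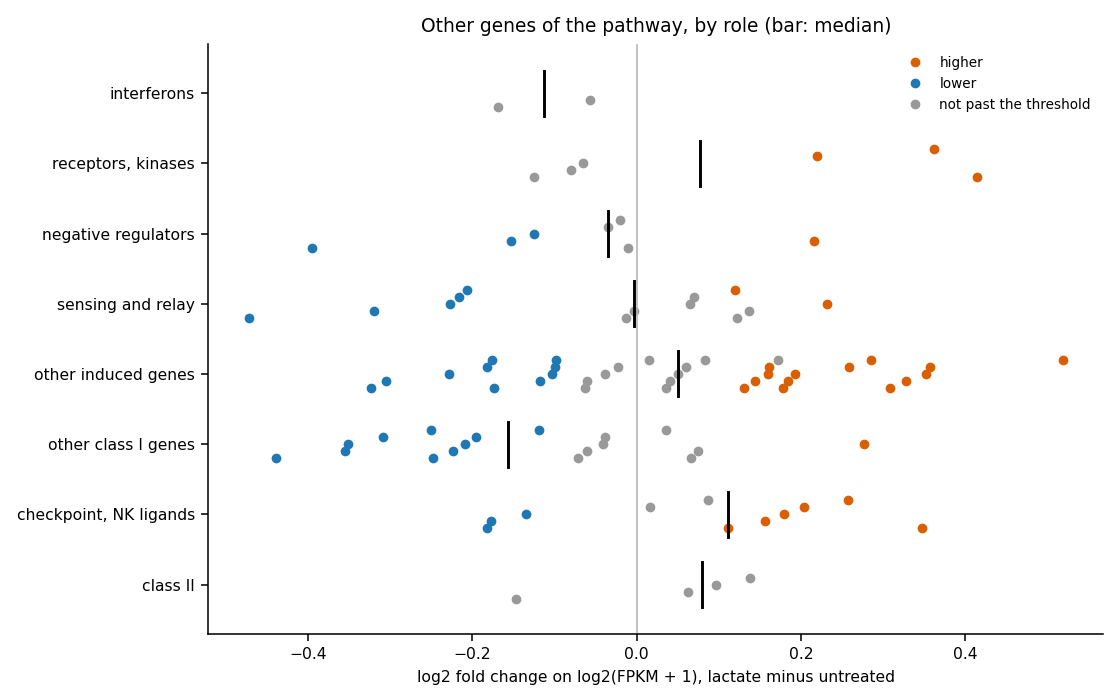
Log2 fold change on log2(FPKM + 1), lactate minus untreated, of the 96 tested genes of the wider list in 8 roles; each point is a gene, orange if it rose, blue if it fell and grey if it did not pass the test, and black bars are medians. Other class I genes have a median of -0.16 with 10 falls and 1 rise, and GBP2 at 0.52 and IKBKE at -0.47 mark the ends.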

How the data were processed

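Poly-A-selected RNA of 6 CAL27 libraries was analysed, 3 untreated and 3 with lactate, grouped by the treatment in the labels. The deposited table holds FPKM per gene. The submitters' processing notes list featureCounts 1.5.0-p3, StringTie 1.3.3b, HISAT2 2.0.5 and fastp, and the build hg38. What each tool did, the annotation and the use of strand are not given in the sources at hand. The values were whole multiples of what a read is worth in each library, to within 0.003 reads for all genes but 2 (0.1), so whole reads were recovered for 100.0% of 31368 genes. They came to 101% to 102% of the denominators in untreated and 96.2% to 97.3% in lactate libraries. The submitters' values thus seem to carry a scaling between libraries. No 2 libraries of a group agreed within sampling noise (chi-square per gene 1.89 to 3.98).

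Genes that reached 1 FPKM in 3 or more libraries were fitted on log2(FPKM + 1) in limma 3.58.1 (R 4.3.3), using a variance trend and robust moderation. The model held only the group, and Benjamini-Hochberg adjustment ran over all 11792 genes tested, at 0.05. Fold changes on this scale understate changes of low genes. Standard errors are moderated, and ± gives the SD of 3 libraries. Coordinates, overlaps and GC content came from GENCODE 29 for GRCh38, and promoters from RefSeq. Exon overlaps in the gene models behind the deposited values may differ, since many of the lengths differed. Python 3.11.15, numpy 2.4.6, pandas 2.3.3 and matplotlib 3.10.9 were used, and the fit was tested on simulated data.

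The members and gene lists were chosen with earlier results of these data known. All 40 members are reported, with values per library where a group mean reached 1 FPKM. In each role of the wider list up to 3 genes with the smallest p per direction are named, or the most abundant tested gene where none passed. DHX58 and the ULBP genes are named in addition. The genes listed as TMEM173, MB21D1, WARS and MARCH9 were found under the newer symbols STING1, CGAS, WARS1 and MARCHF9.

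Alternatives were quantile normalization, median centring, scaling to totals of recovered reads, removal of GC and length trends (splines with 4 degrees of freedom, 11588 genes), a pseudocount of 0.1, no filter, a filter at 5 FPKM, no variance trend, voom on recovered reads, a block on replicate number, and omission of each library. Voom called 3526 rises and 3871 falls.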

Additional observations from a re-analysis of the deposited data

How the results depend on the processing

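Of 21 called members, 11 kept direction and call in every alternative in which they were tested, 16 at most. The limit at 5 FPKM for IFIH1 and IRF1 is given above. Against 3265 rises and 3649 falls of all genes, a filter at 5 FPKM gave 1786 rises, and leaving out 1 library gave 2741 to 3056 rises and 3226 to 3461 falls. Interferon genes (5 rises, 9 falls) fell in 5 cases under quantile normalization and 5 with GC and length trends removed, and rose in 3 at 5 FPKM, where fewer were tested. Leaving out 1 library gave 4 rises and 7 to 8 falls. Presentation genes (3 rises, 3 falls) rose in 8 under quantile normalization, 5 with scaling to read totals and 6 with trends removed. They fell in 1 under quantile normalization, 1 with read totals, 5 with median centring and 5 with voom. Without 1 library they gave 3 rises and 3 to 4 falls. Rises in the wider list (27) came to 13 at 5 FPKM and 22 to 26 without 1 library, and its falls (31) to 27 to 32. The cause of these shifts was not tested.

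Directions turned as follows (log2 fold changes). With trends removed the values were IRF7 0.072, ISG15 0.11, IFIT1 -0.048, IFIT5 -0.036, IFITM1 0.15, IFITM2 0.010, IFI6 0.18, HLA-C 0.066, HLA-E 0.070, ERAP1 -0.050, IFNL1 0.13, IFI16 -0.040 and CD47 -0.016. Under quantile normalization they were ISG15 0.13, IFIT2 0.0042, IFITM1 0.031, IFI6 0.084, HLA-C 0.16, HLA-E 0.11, B2M 0.15 and TAP2 0.015. With read totals they were IRF7 0.038, ISG15 0.026, IFIT2 0.00059, IFITM1 0.040, OAS1 0.013, IFI6 0.065, HLA-C 0.020, HLA-E 0.015, B2M 0.00085 and TAP2 0.031. With median centring they were HLA-B -0.0079 and TAPBP -0.0026. Leaving out 1 library gave -0.057 to 0.035 for IRF7, -0.072 to 0.0083 for IFITM1, -0.059 to 0.00052 for OAS1, -0.044 to 0.034 for IFI6, -0.0024 to 0.023 for HLA-B and -0.10 to 0.00052 for IFNL1, none of them past the threshold.

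Deviations of same-numbered libraries correlated at 0.0526, 0.0668 and -0.00377, and those of differently numbered libraries at -0.0706 to 0.0224. With 3 libraries per group these values cannot decide whether the replicate numbers pair the samples. With the replicate number as a block 3257 genes rose and 3782 fell, and 5 presentation genes fell in place of 3. Under this block ISG15 (-0.044, adjusted p = 0.0144), HLA-C (-0.050, adjusted p = 0.0135) and HLA-E (-0.055, adjusted p = 0.0142) passed as lower. Below the filter of 1 FPKM, 5 members were not tested.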

Other observations

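Since PSMB8 and PSME3 fell, the other immunoproteasome subunit genes, the activator genes PSME1 and PSME2 and the standard subunits were examined. This choice was made after values were seen. PSMB10, another catalytic subunit of the immunoproteasome, went from 15.8 ± 1.1 to 11.4 ± 0.809 FPKM (SD, n = 3, log2 fold change -0.44, limma adjusted p = 0.000914). PSMB9, the third inducible subunit, went from 56.1 ± 1.51 to 48.9 ± 0.556 FPKM (-0.20, adjusted p = 0.000441). The activator genes PSME1 (190 ± 3.17 to 164 ± 2.59 FPKM, -0.21) and PSME2 (81.2 ± 2.84 to 68.1 ± 0.279 FPKM, -0.25) fell as well. In all of these genes every lactate library lay below every untreated one, as it did in 34.2% of all genes tested.

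The standard subunits that the inducible ones replace fell too, where 30.9% of all genes tested fell. PSMB5 went from 263 ± 1.49 to 212 ± 0.726 FPKM (-0.31, adjusted p = 1.23e-05), PSMB6 from 247 ± 2.43 to 206 ± 6.72 FPKM (-0.26, adjusted p = 0.000134) and PSMB7 from 527 ± 5.17 to 436 ± 2.19 FPKM (-0.28, adjusted p = 1.39e-05). With the trends on GC content and length removed, all 9 proteasome genes were still lower, where 3133 of the 11588 genes in that fit were. PSMB10 was at -0.29, PSMB8 at -0.23, PSMB5 at -0.16 and PSME1 nearest to 0 at -0.05 (adjusted p = 0.0398). Under quantile normalization PSME1, PSMB6 and PSMB7 did not pass.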
